A study of Mus musculus with 8 samples.

Results

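The genes described here are the ligands and receptors of the epidermal growth factor (EGF) family that keratinocytes (KCs), the epithelial cells of the epidermis, are known to use. They were chosen by gene symbol and comprise 6 ligands (Areg, Ereg, Hbegf, Tgfa, Epgn and Btc), 3 receptors (Egfr, Erbb2 and Erbb3) and the receptor inhibitor Errfi1. All 10 genes were found among the 41457 genes listed for each sample, and all 10 passed the filter on low counts, as did 12590 genes in all. Poly(A) RNA was sequenced from untreated wildtype KCs of C57BL/6 mice that had been cultured for 1 week (4 samples) or 3 weeks (4 samples). The KCs of both groups came from tail epidermis of adult mice and grew in a serum-free medium with little calcium, in which they were passaged near confluence. The paper describes the KCs of both times as coming from shared batches, and the preparation numbers in the names of the deposited tables recur for 3 preparations (46, 49 and 90), in replicates 1, 3 and 4 at 1 week and 1, 2 and 4 at 3 weeks. The comparison below is unpaired, as the paper's tests were, and calls of members that change when these 3 preparations serve as a block are named. That fit leaves out the 1 week replicate 2 and the 3 weeks replicate 3, and it was not run for ratios of genes. The series is described as 4 independent experiments, and it is not stated whether several mice were pooled for one culture.

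EGF family ligands are made as transmembrane precursors, from which proteases of the ADAM family release the soluble growth factor. Released ligand binds EGFR, which pairs with itself or with another ERBB receptor and signals through the RAS-ERK and PI3K-AKT cascades, and ERRFI1 (MIG6) binds the active kinase domain and inhibits it. In epidermis this pathway is known for driving the proliferation and migration of KCs, and KCs in culture respond to the ligands that they release themselves.

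Of the 6 ligands, 4 lie together on mouse chromosome 5. On GRCm38, Epgn occupies chr5:91027464-91035215, Ereg chr5:91074622-91093646 and Areg chr5:91139599-91148432, all on the plus strand, and Btc occupies chr5:91357261-91402994 on the minus strand. The stretch from the start of Epgn to the end of Btc spans 375.5 kb and holds 7 listed genes. The 3 others had at most 13 exon reads in any sample. Ereg and Areg start 65.0 kb apart.

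The sequences just upstream of 3 genes of the chromosome 5 group are shown, since Areg and Btc changed in opposite directions upon culture, while Epgn had the highest mean level of all members at 1 week. They were taken from RefSeq (GRCm38.p6), read 5′ to 3′ on the strand of the gene, and end at the base before the annotated start. Capitals mark matches to the motifs searched, which were the cAMP response element (CRE, TGACGTCA), the TATA box (TATAAA), the GC box (GGGCGG) and the AP-1 site (TGANTCA), each on both strands.
Epgn (chr5:91027267-91027463, plus strand): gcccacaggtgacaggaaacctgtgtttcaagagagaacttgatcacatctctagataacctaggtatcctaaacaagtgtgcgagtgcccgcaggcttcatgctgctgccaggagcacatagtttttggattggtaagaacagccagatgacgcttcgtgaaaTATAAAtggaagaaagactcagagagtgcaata
Areg (chr5:91139349-91139598, plus strand): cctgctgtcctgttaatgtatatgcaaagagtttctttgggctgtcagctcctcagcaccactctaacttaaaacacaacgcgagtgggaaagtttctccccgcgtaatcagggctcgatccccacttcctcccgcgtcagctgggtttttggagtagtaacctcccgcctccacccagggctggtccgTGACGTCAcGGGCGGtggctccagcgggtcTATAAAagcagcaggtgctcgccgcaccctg
Btc (chr5:91402995-91403244, minus strand): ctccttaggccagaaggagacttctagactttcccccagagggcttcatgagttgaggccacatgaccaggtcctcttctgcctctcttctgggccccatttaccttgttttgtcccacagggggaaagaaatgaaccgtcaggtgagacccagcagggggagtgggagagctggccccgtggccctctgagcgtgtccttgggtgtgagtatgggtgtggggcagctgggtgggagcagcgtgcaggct
Areg had a CRE at position -61, GC boxes at -52 and 38 and a TATA box at -31, counted from the RefSeq start, with -1 as the first base upstream. Epgn had a TATA box at -86, which is -33 from the start in the deposited tables that the printed sequence runs up to, since the RefSeq start lies 53 bases downstream of it. None of the 4 motifs was found in the window of Btc. RefSeq windows of 300 bases (250 before and 50 after the start) were at hand for 7 of the 10 genes, in 8 windows. Errfi1 had 2 windows, chr4:150853546-150853845 and chr4:150854820-150855119. The only other CRE was in the second of these, at -51. That window also had a TATA box at -28 and 3 GC boxes, of which 1 pair overlapped by 2 bases. It lies inside the gene of the deposited tables, which starts at 150853919. None of the 4 motifs was found in the first window of Errfi1. Tgfa had 2 GC boxes, Egfr had 1, and no AP-1 site was found in the 8 windows. Among the 32851 mouse windows of this length, 1.79% held a CRE, 13.6% a TATA box, 35.7% a GC box and 7.81% an AP-1 site. These matches describe the letters in the windows, and no binding was measured.

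Levels are given as RPKM (reads divided by exon length and by sequencing depth), as deposited by the authors. The samples had between 13896807 and 20026084 exon reads at 1 week and between 14096649 and 18127283 at 3 weeks. Log2 fold changes, 3 weeks over 1 week, are from edgeR's quasi-likelihood test on the exon reads after TMM scaling, a correction for library composition that RPKM lacks, and p-values were adjusted over all tested genes by Benjamini-Hochberg. The median log2 fold change of all genes was 0.03 after TMM scaling and -0.16 on the log2(RPKM + 0.1) scale. Replicates 3 and 4 of 3 weeks stood apart from the other samples of their group. The chi-square statistic per degree of freedom ranged from 115 to 264 in pairs with replicate 3 and from 116 to 264 in pairs with replicate 4. Replicates 1 and 2 of 3 weeks gave 31.9, and the pairs of 1 week gave 15.4 to 65.5. The TMM factor of the 3 weeks replicate 3 (0.853) was the lowest of all samples. The p-values measure the spread between these samples, and in bulk RNA fewer cells that express a gene and less RNA per cell cannot be told apart.

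The labelled cell type was checked by its markers. The summed RPKM of 8 basal KC markers lay between 12405 and 14644 at 1 week and between 7403 and 8585 at 3 weeks. Most of it came from Krt5 (means 6170 and 2207 RPKM) and Krt14 (6941 and 5283 RPKM). Krt5 (log2 fold change -1.32) and Itga6 (-0.75) were called lower. The other basal markers, Krt14 among them, were not called, with log2 fold changes from -0.69 (Trp63) to 0.58 (Cdh1). The sums of 5 suprabasal markers were small (3.96 to 26.7 RPKM at 1 week and 3.86 to 13.6 RPKM at 3 weeks), and Krt1 was called lower. Fibroblast markers summed to 3.53 to 6.32 RPKM at 1 week and 2.71 to 5.95 RPKM at 3 weeks, with 0 of 7 called, and those of melanocytes to 3.22 to 21.0 and 1.28 to 5.55 RPKM, with 1 of 4 tested called lower (Pmel). The 5 immune markers summed to 1.22 to 4.04 RPKM at 1 week and 1.46 to 3.66 RPKM at 3 weeks, with 0 of 2 tested called. Of these, Cd207 had 0 reads in all samples, and Cd3e had at most 1 read. Ptprc had 2 to 11 reads per sample, Cd74 had 12 to 38 and Lyz2 had 14 to 65. The sum of 3 smooth muscle markers was 1.08 to 3.08 RPKM at 1 week and 11.8 to 31.2 RPKM at 3 weeks, mostly from Cnn1, while Myh11 had 2 to 7 reads per sample at 1 week and 4 to 171 at 3 weeks, and Des stayed at 11 or fewer. Endothelial markers summed to 0.399 to 0.557 RPKM at 1 week and 0.252 to 0.418 RPKM at 3 weeks. Merkel cell markers summed to 0 to 0.0537 RPKM and 0.283 to 0.529 RPKM, with the sum at 3 weeks from Krt20 alone (8 to 19 reads per sample). The part of these shifts in the results below was not tested.

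Among the members, the ligands Ereg and Btc rose upon prolonged culture and the ligand Areg fell, while the other 3 ligands, the 3 receptors and Errfi1 did not pass the test. These 3 calls among 10 genes stand beside 32.8% of all tested genes called (15.7% higher and 17.0% lower), so the share of members called was close to that of all genes. The median log2 fold change of the members was 0.02.

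**Figure D1:**
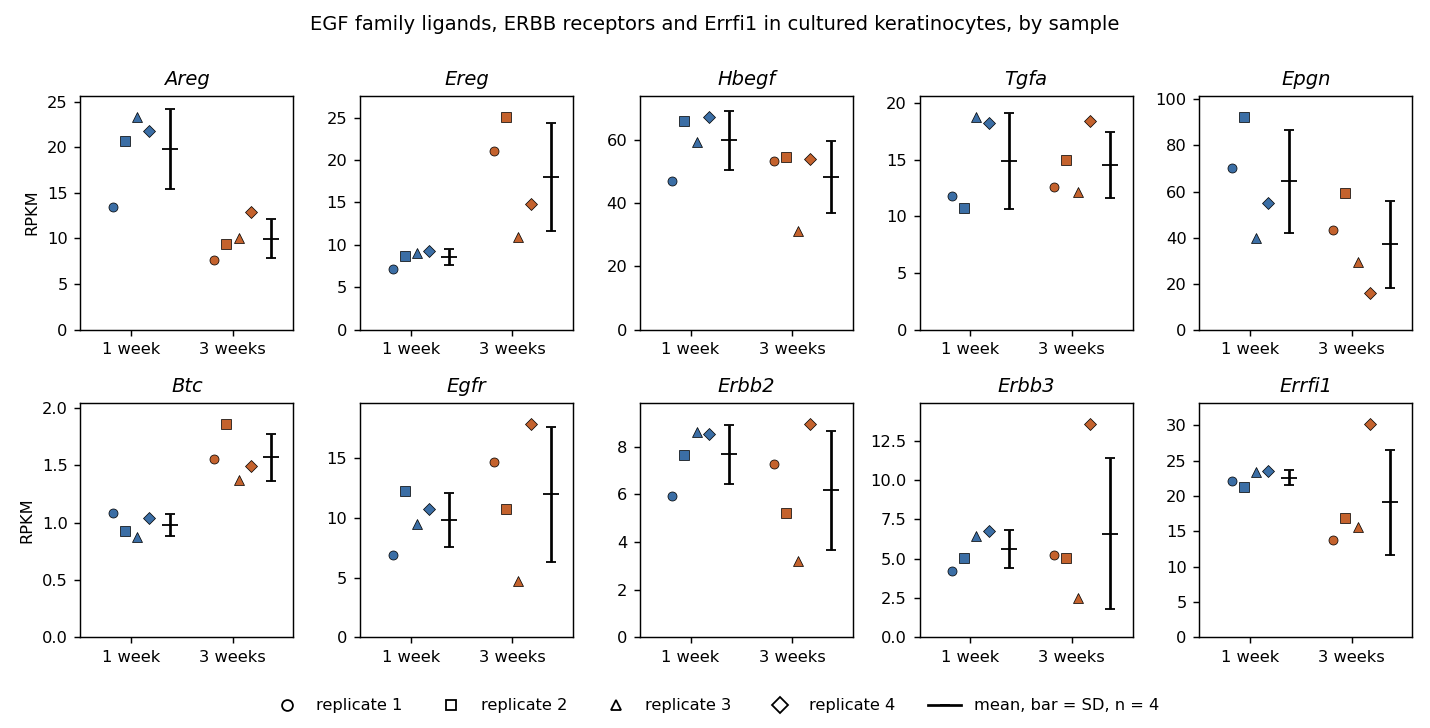
RPKM of each of the 10 genes (y axis, linear from 0) in the 4 samples of KCs cultured for 1 week (blue) and the 4 cultured for 3 weeks (orange). Symbols stand for replicates, and the bars give the mean and SD (n = 4). The groups do not overlap for Areg, Ereg and Btc, and do for the 7 others.

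Ereg encodes epiregulin, a ligand of EGFR and ERBB4. Its level was 7.18, 8.67, 9.10 and 9.27 RPKM in the samples of 1 week and 21.1, 25.1, 10.9 and 14.8 RPKM in those of 3 weeks (replicates 1 to 4). Every 3 weeks sample was above every 1 week sample, and the spread was wider at 3 weeks, where replicates 1 and 2 were the highest. The means were 8.55 ± 0.952 and 17.96 ± 6.36 RPKM (SD, n = 4), and the log2 fold change was 1.22 (SE 0.22, 95% interval 0.72 to 1.72, edgeR adjusted p = 0.00365). Ereg was called under all 18 alternatives, and without the 3 weeks replicate 3 its log2 fold change was 1.34 (edgeR adjusted p = 0.00169). The antisense gene Gm19610 overlaps the 5′ part of Ereg, and its own reads were few (at most 13).

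Areg encodes amphiregulin, a ligand of EGFR that is known as an autocrine growth factor of KCs. It had 13.5, 20.7, 23.3 and 21.7 RPKM at 1 week and 7.64, 9.41, 10.02 and 12.9 RPKM at 3 weeks. The lowest 1 week sample, replicate 1, was only just above the highest 3 weeks sample, replicate 4, and after TMM scaling this pair changed places (13.47 against 13.49 RPKM), so that the groups overlapped there. The means were 19.8 ± 4.36 and 9.99 ± 2.18 RPKM (SD, n = 4), and the log2 fold change was -0.82 (SE 0.22, 95% interval -1.31 to -0.33, edgeR adjusted p = 0.0181). The call was lost without the 1 week replicate 4 (edgeR adjusted p = 0.0505) and without the 3 weeks replicate 2 (0.0544), with log2 fold changes of -0.78 in both cases. Over the 18 alternatives the log2 fold change ranged from -0.99 to -0.70.

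Btc encodes betacellulin, a ligand of EGFR and ERBB4, and was the least abundant member. It had 1.08, 0.924, 0.878 and 1.04 RPKM at 1 week and 1.55, 1.86, 1.37 and 1.49 RPKM at 3 weeks. All samples of 3 weeks were above those of 1 week, at between 57 and 138 exon reads per sample. The log2 fold change was 0.83 (SE 0.17, 95% interval 0.45 to 1.22, edgeR adjusted p = 0.00609). Btc was called under 17 of 18 alternatives, and lost its call with the shared preparations as a block (log2 fold change 0.78, edgeR adjusted p = 0.0760). That fit has fewer samples, since it leaves out the 1 week replicate 2 and the 3 weeks replicate 3. With the replicate block on all samples Btc was called (0.84, edgeR adjusted p = 0.0391). Together, RPKM did not overlap between the groups for 3 of the 10 members, as for 37.0% of all tested genes, and after TMM scaling for 2 (Ereg and Btc), as for 34.9% of all genes.

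Since Ereg and Areg are neighbours that changed in opposite directions, their ratio was formed within each sample. This was chosen after their values had been seen and was not tested. RPKM of Ereg over that of Areg was 0.532, 0.418, 0.390 and 0.426 at 1 week and 2.76, 2.66, 1.08 and 1.15 at 3 weeks. Areg was thus the higher of both in the 4 samples of 1 week, and Ereg in the 4 samples of 3 weeks, although replicates 3 and 4 of 3 weeks were near equality.

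By mean RPKM, Epgn and Hbegf were the most abundant ligands at both times. In the 3 weeks replicate 4, however, Tgfa (18.4 RPKM) was above Epgn (15.8 RPKM). Epgn encodes epigen, a ligand of EGFR with low affinity. It varied most among the ligands, with 70.2, 92.4, 39.8 and 55.1 RPKM at 1 week and 43.5, 59.4, 29.3 and 15.8 RPKM at 3 weeks. The groups overlapped, and replicate 4 was the lowest at 3 weeks. The log2 fold change was -0.64 with an SE of 0.39 and a 95% interval from -1.51 to 0.24 (edgeR adjusted p = 0.237).

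Hbegf (chr18:36504929-36515805) encodes heparin-binding EGF-like growth factor, which binds EGFR and ERBB4. It had 46.9, 65.8, 59.3 and 67.2 RPKM at 1 week and 53.2, 54.6, 31.0 and 53.9 RPKM at 3 weeks. The groups overlapped, and 3 of the samples of 3 weeks were nearly equal, with replicate 3 far below them. Its log2 fold change was -0.16 (SE 0.17, 95% interval -0.55 to 0.23, edgeR adjusted p = 0.507). Tgfa (chr6:86195223-86275719) encodes transforming growth factor alpha and had 11.8, 10.7, 18.8 and 18.2 RPKM at 1 week and 12.5, 14.9, 12.1 and 18.4 RPKM at 3 weeks. Its groups overlapped widely, and the log2 fold change was 0.12 (SE 0.21, 95% interval -0.35 to 0.60, edgeR adjusted p = 0.690), a direction that turned (-0.01) on both RPKM scales and without the 1 week replicate 2.

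**Figure D2:**
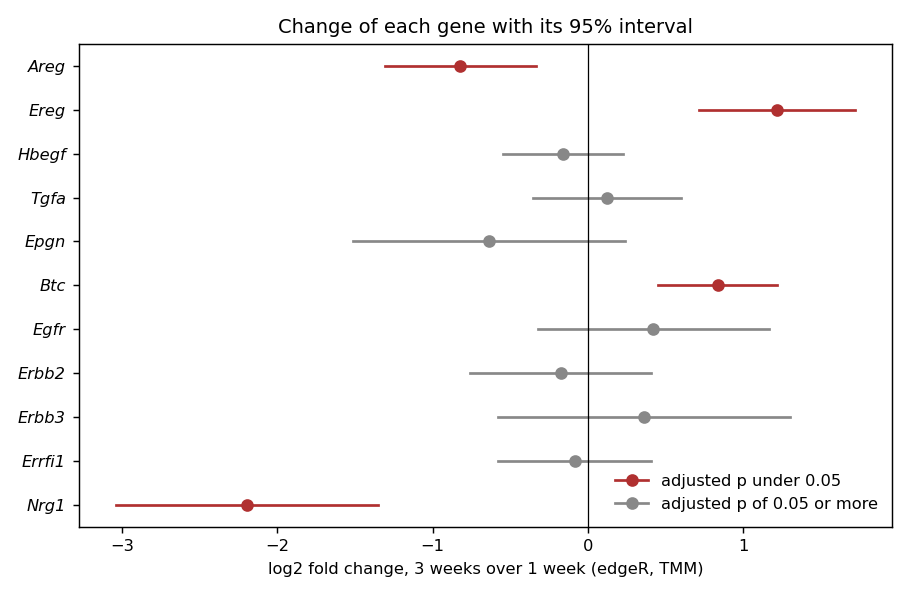
Log2 fold change from 1 to 3 weeks (x axis, edgeR after TMM scaling) of the 10 members and of Nrg1, with 95% intervals as lines. Red marks an adjusted p-value under 0.05, which Areg (-0.82), Ereg (1.22), Btc (0.83) and Nrg1 (-2.20) had, while the intervals of the other 7 genes include 0.

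The RPKM of the 6 ligands summed to between 151 and 199 at 1 week and between 94.8 and 165 at 3 weeks. At 1 week the median share was 39.2% for Epgn and 36.0% for Hbegf, and at 3 weeks 31.1% and 35.6%. The share of Ereg in the sum was between 4.35% and 6.02% at 1 week and between 11.5% and 15.2% at 3 weeks, and that of Areg between 8.96% and 15.4% and between 5.47% and 10.99%. The shares of Ereg did not overlap between the groups, whereas those of Areg did.

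Ordered by mean RPKM, the members at 1 week ran from Epgn and Hbegf through Errfi1, Areg, Tgfa, Egfr, Ereg, Erbb2 and Erbb3 down to Btc. Only the steps from Hbegf to Errfi1 and from Erbb3 to Btc were free of overlap between neighbours. At 3 weeks the order was Hbegf, Epgn, Errfi1, Ereg, Tgfa, Egfr, Areg, Erbb3, Erbb2 and Btc, and only the step from Erbb2 to Btc was free of overlap. Ereg moved from place 7 to place 4, and Areg from place 4 to place 7.

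The receptors varied widely between the samples of 3 weeks. Egfr (chr11:16752203-16918158) encodes the EGF receptor and had 6.91, 12.2, 9.51 and 10.7 RPKM at 1 week and 14.7, 10.7, 4.71 and 17.9 RPKM at 3 weeks. The 3 weeks samples lay on both sides of those of 1 week, with replicate 3 below all of them and replicates 1 and 4 above. The log2 fold change was 0.42 (SE 0.33, 95% interval -0.32 to 1.17, edgeR adjusted p = 0.359). Without the 3 weeks replicate 3 it was 0.65 and passed the test (edgeR adjusted p = 0.0498). It also passed with the shared preparations as a block (0.74, edgeR adjusted p = 0.0480). That fit leaves out this sample and also the 1 week replicate 2, which had the highest Egfr level of its group. Without the 1 week replicate 2 alone the log2 fold change was 0.53 and did not pass (edgeR adjusted p = 0.326).

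Erbb2 (chr11:98412470-98437716) encodes a receptor that binds no ligand of its own and serves as a partner of the others. Its level was 5.95, 7.65, 8.62 and 8.52 RPKM at 1 week and 7.29, 5.23, 3.21 and 8.94 RPKM at 3 weeks. The groups overlapped, and the log2 fold change was -0.17 (SE 0.26, 95% interval -0.76 to 0.41, edgeR adjusted p = 0.642). Erbb3 (chr10:128567523-128589652) encodes a receptor for neuregulins with a nearly inactive kinase. It had 4.18, 5.05, 6.45 and 6.73 RPKM at 1 week and 5.20, 5.06, 2.4996 and 13.5 RPKM at 3 weeks, where the highest sample was 5.41 times the lowest. Replicates 3 and 4 of 3 weeks were the lowest and the highest of all 8 samples, and the log2 fold change was 0.36 (SE 0.42, 95% interval -0.58 to 1.30, edgeR adjusted p = 0.540). Without the 3 weeks replicate 4 it turned to -0.23.

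Ratios of receptors within a sample do not depend on the scaling between samples. Erbb2 over Egfr was 0.860, 0.625, 0.907 and 0.794 at 1 week and 0.496, 0.488, 0.682 and 0.501 at 3 weeks. The 3 weeks replicate 3 was above the lowest 1 week sample, replicate 2, and the other samples were separated. The mean log2 ratio was 0.56 lower at 3 weeks (-0.34 ± 0.24 against -0.90 ± 0.23, SD, n = 4; two-sided exact permutation test, p = 0.0571, adjusted over both ratios 0.114), while the smallest p that 70 arrangements allow is 0.0286. For Erbb3 over Egfr the mean log2 ratio was -0.81 ± 0.32 at 1 week and -0.97 ± 0.46 at 3 weeks (SD, n = 4), and the groups overlapped (exact permutation p = 0.571).

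**Figure D3:**
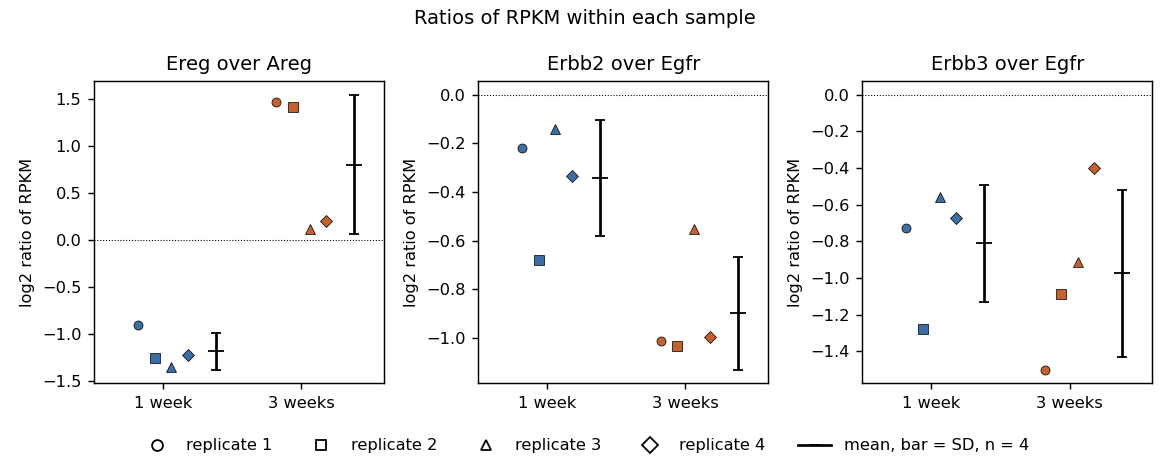
Log2 ratio of RPKM within each sample (y axis) for Ereg over Areg, Erbb2 over Egfr and Erbb3 over Egfr, at 1 week (blue) and 3 weeks (orange), with replicates as symbols and the mean and SD (n = 4) as bars. The dotted line marks equal levels, and Ereg over Areg lies below it in the 4 samples of 1 week and above it in the 4 of 3 weeks.

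Errfi1 (chr4:150853919-150868892) had 22.1, 21.3, 23.3 and 23.6 RPKM at 1 week and 13.8, 16.95, 15.7 and 30.1 RPKM at 3 weeks. It was the most even member at 1 week, and at 3 weeks 3 samples were below and replicate 4 above every sample of 1 week. Over all samples the log2 fold change was -0.08 (SE 0.22, 95% interval -0.58 to 0.41, edgeR adjusted p = 0.799). Without the 3 weeks replicate 4 it was -0.36 and passed the test (edgeR adjusted p = 0.0463), and without the 3 weeks replicate 1 it turned to 0.05.

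The spread at 3 weeks was shared by several members. Replicate 3 had the lowest RPKM of its group for 7 of the 10 members and replicate 4 the highest for 6, and after TMM scaling these numbers were 5 and 6. At 1 week, replicate 1 was the lowest for 6 members on both scales. Reads of Ereg, Tgfa, Egfr, Erbb2 and Errfi1 are less certain where a gene on the opposite strand overlaps them, since no source used here says whether strand was used in counting.

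Of the 6 remaining genes of the family, only Nrg1 had enough reads to be tested. Nrg1 encodes neuregulin-1, a ligand of ERBB3 and ERBB4, and had 9.85, 9.83, 12.2 and 19.6 RPKM at 1 week and 3.83, 3.35, 1.58 and 1.35 RPKM at 3 weeks. The groups did not overlap, and Nrg1 fell by 2.20 on the log2 scale (SE 0.37, edgeR adjusted p = 0.00258). Egf, Nrg2 and Nrg4 had at most 4, 6 and 5 exon reads in any sample, the receptor gene Erbb4 at most 1, and Nrg3 had 0 reads in all samples, which allows up to 0.0307 RPKM (3 reads in the library where they weigh most, counting error only).

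Among 11 genes of ligand shedding, 4 rose and 1 fell, and their median log2 fold change was 0.58, beside 0.03 for all genes, of which 15.7% were called higher and 17.0% lower. On both RPKM scales (limma) and with the preparation block, 2 rose and 1 fell. The metalloproteases Adam15 (log2 fold change 0.79, SE 0.12, edgeR adjusted p = 0.00173), Adam9 (0.59) and Adam10 (0.58), which releases Btc and Egf from cells, were higher at 3 weeks. Unique reads made up 47.1% of the reads of Adam15, and a gene on the opposite strand overlaps it. Frmd8, which encodes a partner that stabilises ADAM17 at the cell surface, had 25.8, 19.8, 32.3 and 27.7 RPKM at 1 week and 39.0, 39.6, 36.0 and 37.5 RPKM at 3 weeks, and rose by 0.69 on the log2 scale (edgeR adjusted p = 0.00885, or 0.0590 with the preparation block). Adam8 had 48.3 to 68.8 RPKM at 1 week and 14.1 to 38.3 RPKM at 3 weeks, and fell by 1.06 on the log2 scale (edgeR adjusted p = 0.0103). Adam17 encodes the main protease for Areg, Ereg, Hbegf, Tgfa and Epgn. It had 6.36 to 9.75 RPKM at 1 week and 5.57 to 10.3 RPKM at 3 weeks (log2 fold change 0.03, SE 0.19, edgeR adjusted p = 0.910), and the sign depended on the setting.

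Of the other genes of shedding, Adam12 (log2 fold change 0.72), Adam19 (0.48), Rhbdf2 (0.22) and Rhbdf1 (-0.36) did not pass the test. RHBDF1 and RHBDF2 (iRhoms) carry ADAM17 to the surface. Adam12 passed without the 3 weeks replicate 3 (0.98, edgeR adjusted p = 0.0220), and Rhbdf1 without the 3 weeks replicate 4 (-0.49, edgeR adjusted p = 0.0491). Timp3, which encodes an inhibitor of ADAM17, had 12.2 to 21.6 RPKM in 3 samples of 3 weeks and 91.4 RPKM in replicate 4, and its log2 fold change of 0.86 turned to -0.13 without that sample. Unique reads made up only 5.01% of the reads of Timp3, so its level is uncertain. Adam10 lost its call with the replicate block (edgeR adjusted p = 0.0508), the preparation block (0.0605) and on both RPKM scales (limma adjusted p = 0.0571 on each). Adam9 lost its call under 8 of 18 alternatives, among them each omission of the 1 week replicates 1, 3 and 4 and of the 3 weeks replicates 1 and 2 (edgeR adjusted p = 0.0739 to 0.0912).

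Of 13 genes of receptor restraint and turnover, 2 rose and 0 fell in edgeR, beside 15.7% of all genes higher and 17.0% lower. Their median log2 fold change was 0.12. Ptprk encodes a receptor phosphatase that removes phosphate from EGFR, and had 7.07, 9.24, 7.35 and 6.38 RPKM at 1 week and 15.4, 13.0, 8.61 and 22.6 RPKM at 3 weeks. Replicate 3 of 3 weeks lay within the range of 1 week, and the log2 fold change was 1.13 (SE 0.24, edgeR adjusted p = 0.00717). Rnf41, which encodes a ubiquitin ligase of ERBB3, had a log2 fold change of 0.62 (edgeR adjusted p = 0.0396). It lost its call in 10 of 18 alternatives, including the omission of any sample other than the 1 week replicate 2 and the 3 weeks replicate 4 (edgeR adjusted p = 0.0722 to 0.103).

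Of 9 genes of ERK feedback, 2 rose and 2 fell, beside 15.7% of all genes higher and 17.0% lower. Their median log2 fold change was -0.34. Dusp4, which encodes a nuclear phosphatase of ERK, had 2.55, 5.24, 5.72 and 3.54 RPKM at 1 week and 13.2, 12.0, 12.8 and 5.79 RPKM at 3 weeks. The samples of 3 weeks were all higher, replicate 4 by little, and Dusp4 rose by 1.54 on the log2 scale (edgeR adjusted p = 0.00780). Spred3 rose by 0.94 (edgeR adjusted p = 0.0166), while Spry1 fell by 0.83 (0.0307) and Spred1 fell by 0.34 (0.0287). SPRY and SPRED proteins inhibit the activation of RAS and RAF. Spred1 lost its call under 7 of 18 alternatives, among them the replicate block (edgeR adjusted p = 0.123) and the preparation block (0.126). The number of calls dropped to 2 without the 1 week replicate 2 or 3 or the 3 weeks replicate 1 or 2, and to 1 without the 1 week replicate 4, where Dusp4 alone was called.

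Of the 17 genes of adaptors and the RAS-ERK cascade, 4 rose (among them Gab2 and Mapk3) and 1 fell. Of all genes, 15.7% were called higher and 17.0% lower. The median log2 fold change of the list was 0.23. Mapk3 encodes ERK1, and had 51.6, 44.7, 51.6 and 50.5 RPKM at 1 week and 66.7, 78.3, 85.2 and 85.2 RPKM at 3 weeks. The groups were well separated, and Mapk3 rose by 0.84 on the log2 scale (edgeR adjusted p = 0.00223). Nras had 47.8 to 49.1 RPKM at 1 week and 22.8 to 28.7 RPKM at 3 weeks, and fell by 0.73 (edgeR adjusted p = 0.00210). Gab2, which encodes a docking protein for the phosphatase SHP2 and for PI3K, rose by 1.33 (edgeR adjusted p = 0.0298), from between 0.404 and 0.889 RPKM to between 0.553 and 2.26 RPKM. Gab2 was called under 10 of 18 alternatives, and its call was lost without any one of the 1 week replicates 1, 3 and 4 and the 3 weeks replicates 1 and 4 (edgeR adjusted p = 0.0588 to 0.0896). The number of calls in the list was 3 in place of 5 without the 1 week replicate 1, 3 or 4 or the 3 weeks replicate 1 and with the preparation block, and 2 (1 higher and 1 lower) with the replicate block. On both RPKM scales 2 of these genes were called higher and 3 lower by limma.

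Of 10 genes of the PI3K-AKT arm, 5 rose and 0 fell in edgeR, beside 15.7% of all genes higher and 17.0% lower, with a median log2 fold change of 0.70. Pik3r3, which encodes a regulatory subunit of PI3K, had 1.36, 1.49, 1.87 and 1.28 RPKM at 1 week and 3.33, 3.15, 3.19 and 5.56 RPKM at 3 weeks. Each sample of 3 weeks was above those of 1 week, and Pik3r3 rose by 1.502 on the log2 scale (SE 0.22, edgeR adjusted p = 0.00123). Unique reads made up 61.0% of its reads. Omission of single samples left 5 or 6 calls in this list, and the preparation block gave 6.

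Of 12 early genes that ERK signalling is known to induce, 0 rose and 5 fell in edgeR, beside 15.7% of all genes higher and 17.0% lower, with a median log2 fold change of -0.82. Egr3, a zinc finger transcription factor, had 0.536, 0.859, 1.77 and 3.74 RPKM at 1 week and 0.256, 0.318, 0.152 and 0.0773 RPKM at 3 weeks. The groups did not overlap, but the level was low and varied between the samples of 1 week, and Egr3 fell by 2.92 on the log2 scale (SE 0.66, edgeR adjusted p = 0.00954). Myc had 55.2, 62.0, 46.4 and 53.7 RPKM at 1 week and 24.4, 22.2, 12.1 and 36.4 RPKM at 3 weeks, all lower than at 1 week, and fell by 1.05 (SE 0.26, edgeR adjusted p = 0.0129). The list had 3 calls with the preparation block and without the 1 week replicate 1 or the 3 weeks replicate 2, and 2 calls without the 1 week replicate 2. All 7 lists were drawn up with results of these samples known, so their counts describe the lists only.

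**Figure D4:**
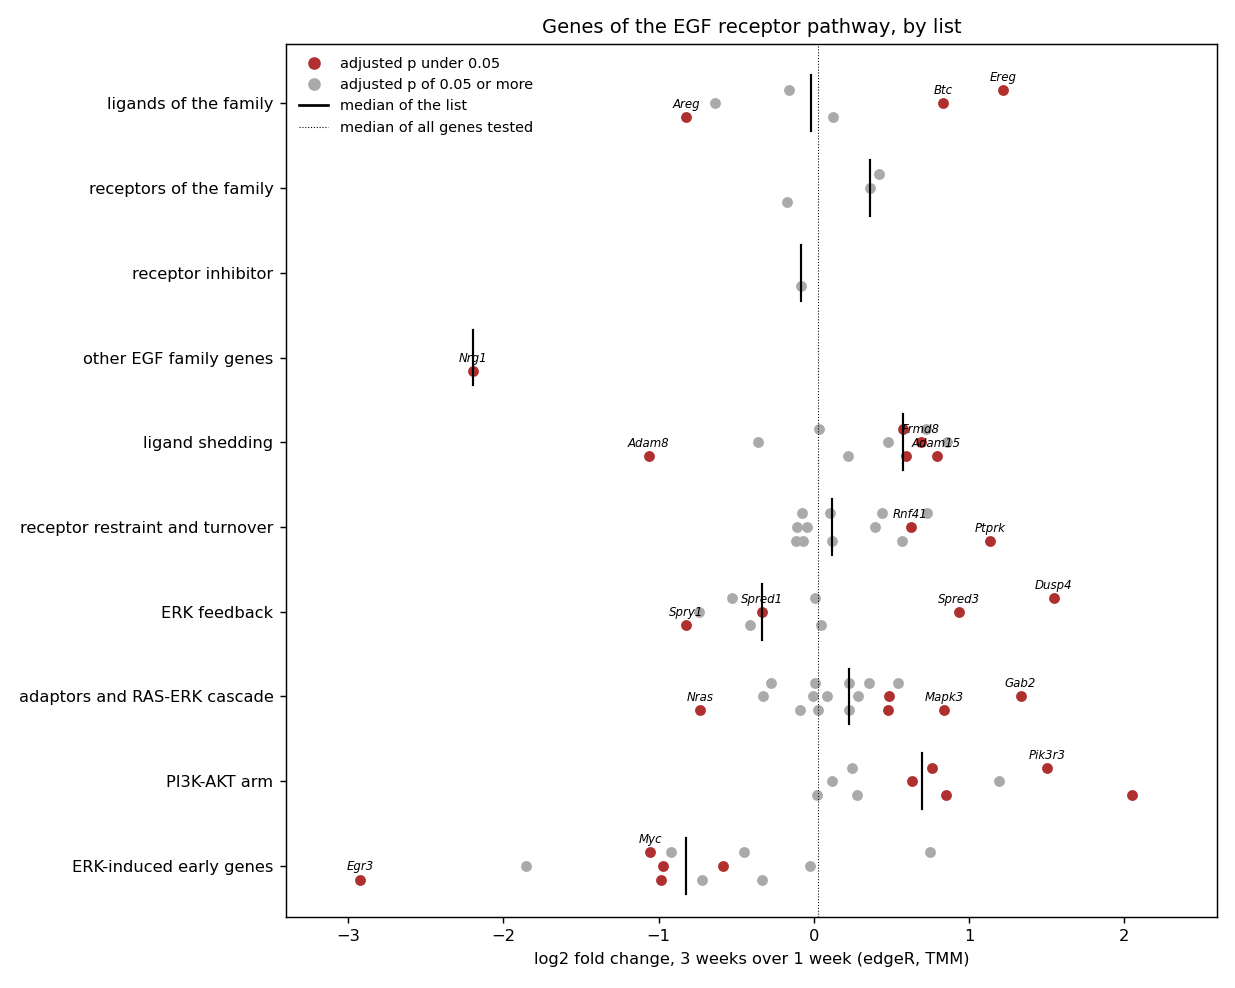
Log2 fold change from 1 to 3 weeks (x axis, edgeR after TMM scaling) of each tested gene of the members and of 7 pathway lists (rows), in red where the adjusted p-value was under 0.05, with list medians as black bars and the median of all genes (0.03) as a dotted line. Up to 2 rises and 2 falls per list carry a name, and the medians run from -0.82 (ERK-induced early genes) to 0.70 (PI3K-AKT arm), apart from the single gene Nrg1.

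The genes whose pattern over the 8 samples was nearest to that of a member were sought for Egfr and for Areg, among 8587 other tested genes averaging 10 CPM or more, by Euclidean distance between centred log2 CPM values. For Egfr these included Zfp865 (distance 0.33) and Zfp46 (0.34), with log2 fold changes of 0.42 and 0.36. Unique reads made up only 0.415% of those of Zfp865. For Areg the nearest were Il18r1 (0.47), Hcar2 (0.48) and Prkaa2 (0.57), which fell by 0.91, 0.91 and 1.02 on the log2 scale. Il18r1 had 4.75 to 7.23 RPKM at 1 week and 2.33 to 3.34 RPKM at 3 weeks, and, as for Areg, replicate 3 was the highest at 1 week and replicate 4 at 3 weeks. Since Il18r1 was chosen for its nearness to Areg over these same samples, this likeness is part of the choice.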

How the data were processed

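Poly(A) RNA of 8 KC cultures was sequenced, 4 per time. The authors aligned the reads to GRCm38 in the CLC Genomics Workbench with default settings and deposited 1 gene table per sample, with raw counts of reads on exons, on the whole gene and on introns, and with RPKM, which equalled total exon reads per exon length and per mapped reads of the sample. The annotation release and the use of strand are not given in the sources used here. RPKM was read with decimal commas. Of the exon reads, 81.6% to 84.7% mapped uniquely.

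The test on total exon counts was that of edgeR 4.0.16, run in R 4.3.3 (filterByExpr, TMM, glmQLFit and glmQLFTest), unpaired as in the paper, with Benjamini-Hochberg adjustment over 12590 genes and a threshold of 0.05. Standard errors were derived from the F statistics. Alternatives used DESeq2 1.42.0, limma 3.58.1 on log2(RPKM + 0.1) and log2(RPKM + 1), upper-quartile scaling, other filters (none, or at least 10 reads in every sample), unique reads, whole-gene reads, replicate or preparation blocks, and omission of each sample. The preparation numbers came from the file names. Receptor ratios were compared by exact permutation. Python 3.11.15 and matplotlib 3.10.9 served for the rest.

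In simulated counts for this comparison (12590 genes), 100 genes were changed 2-fold, 100 were changed 4-fold and no others were changed. Of these, 43 and 92 were recovered, with 10 false calls. In the data a larger share of genes was called (32.8%), and the adjustment depends on that share. The rates recovered therefore need not hold for the data. The members and lists were chosen with earlier results of these data known. Named were all members, every tested gene of the remaining family and of ligand shedding, the 2 largest rises and falls with an adjusted p-value under 0.05 in each other list, and the 3 genes nearest to Egfr and to Areg (predicted genes left out). Of the genes that this rule gives, 2 are not reported here. Other genes named (the marker genes and those at low counts) were added for context. The basis of coordinates is the deposited tables, and that of sequences RefSeq.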

Additional observations from a re-analysis of the deposited data

Results flagged for a closer look

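The Hbegf level of the 3 weeks replicate 3, at 31.0 RPKM, lay far from the 3 other samples of its group, which were between 53.2 and 54.6 RPKM. The gap to the nearest of them was 0.942 of the whole range of the group, above Dixon's critical value for 4 samples. It was the only one marked among 22 groups of 4 samples examined (10 members and Nrg1 at both times), while chance marks about 1 in 20 such groups. The same library had the lowest TMM factor. After TMM scaling its Hbegf level was 37.6 RPKM, still far from the other samples of its group, which were between 56.4 and 57.7 RPKM. The cause was not tested.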

How the results depend on the processing

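Over 18 alternatives for each of 10 members, 168 of 180 values kept their direction and their side of the threshold. The number of members called was 3 under each alternative that kept all samples or used a block, and 2 to 4 when single samples were omitted. Ereg was called under all of them. Reversals concerned genes that did not pass the test: Tgfa (-0.00955 with limma on log2(RPKM + 0.1), -0.0104 with limma on log2(RPKM + 1) and -0.0129 without the 1 week replicate 2), Erbb3 (-0.00663 with limma on log2(RPKM + 0.1) and -0.232 without the 3 weeks replicate 4, in a range up to 0.595), Errfi1 (0.0516 without the 3 weeks replicate 1, in a range down to -0.355), Adam17 (-0.0232 without a filter, -0.13 and -0.12 on the RPKM scales, and -0.13 to 0.12 on omission of single samples) and Timp3 (-0.128 without the 3 weeks replicate 4, in a range up to 1.12). Erbb3 over Egfr turned to 0.0100 without the 3 weeks replicate 1, within a range of -0.357 to 0.0100 on omission of samples. The cause was not tested. All genes called numbered 3015 to 4861 on omission of single samples, and the pathway lists held 19 to 34 calls (27 with all samples). limma on log2(RPKM + 0.1) split the calls of all genes into 1313 higher and 3089 lower, against 1981 and 2146, and those of the pathway lists into 11 and 14, against 17 and 10.

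The replicate numbers were not taken to pair the samples, since numbers 2 and 3 join different preparations, the correlations of same-numbered deviations ran from -0.23 to 0.25 and only 1 of 4 samples correlated best with its own number. With the replicate block 2867 genes were called, 3 members among them, and 22 genes of the pathway lists. The block left the ratio difference of Erbb2 over Egfr at -0.56 (exact sign-flip p = 0.125, the smallest that 4 pairs allow) and of Erbb3 over Egfr at -0.17 (p = 0.625). In 4 of 4 of these pairs Erbb2 over Egfr was lower at 3 weeks. Since numbers 2 and 3 join different preparations, this is not a paired comparison of the same cells. The block of the 3 preparations found at both times leaves out the 1 week replicate 2 and the 3 weeks replicate 3. With it 3109 genes were called, 22 of them in the pathway lists. Btc missed the threshold there (edgeR adjusted p = 0.0760) and Egfr passed it (log2 fold change 0.74, edgeR adjusted p = 0.0480). Changes of 2-fold can be missed with 4 samples per group, and Btc rests on few reads.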
